A study of Homo sapiens with 6 samples.

Results

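The mitochondrial ribosomal protein genes are the nuclear genes for the proteins of the ribosome inside mitochondria, here every protein-coding gene whose symbol starts with MRPL or MRPS and a digit. This rule gave 78 of the 58735 genes in the deposited table, and 77 of them passed the filter on low counts that left 17299 genes to test. They were compared between Ishikawa cells (a line from human endometrial cancer) lipofected with an siRNA against TCF19 (siTCF19, 3 libraries) and Ishikawa cells that had received a negative control siRNA (siNC, 3 libraries). RNA was taken 48 hours after transfection in both groups, and all cells grew in DMEM with serum and were transfected with lipo2000. TCF19 is a chromatin protein that reads histone marks through its PHD finger. The labels name no culture or day behind the replicate numbers, so each p-value here reflects the spread among the sequenced samples, which may be technical in origin. The labels do not say which siRNA sequence was used or whether 1 or several were pooled.

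Mitochondria keep a small genome whose messages encode subunits of the respiratory chain and of ATP synthase, and a dedicated ribosome translates them. The ribosomal RNAs of that ribosome come from mitochondrial DNA, but each of its proteins is made in the cytosol from a nuclear gene and imported. Proteins named MRPL belong to the large subunit, which forms the peptide bond, and proteins named MRPS mostly to the small subunit, which reads the message. Some have a counterpart in bacterial ribosomes and others are found only in mitochondria.

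The libraries held 14680022 to 16244705 counts. TCF19 itself had 42.7, 35.3 and 39.1 CPM (counts relative to a library size scaled by TMM factors) in the siTCF19 libraries and 177, 185 and 177 CPM in the siNC libraries. Its log2 fold change was -2.20 ± 0.06 (SE; edgeR's quasi-likelihood test with Benjamini-Hochberg adjustment, adjusted p = 6.15e-29), so the knockdown was seen in every library that carries its label. Epithelial markers (EPCAM, CDH1, KRT8, KRT18, KRT19 and PAX8) summed to 606 to 636 FPKM (fragments per kilobase of gene length, scaled to library depth) in siTCF19 and 627 to 654 FPKM in siNC. Within these near-equal sums CDH1 (log2 fold change 0.61) and KRT19 (0.44) rose, KRT8 (-0.40) and KRT18 (-0.43) fell, and EPCAM and PAX8 were not called. Stromal markers summed to 2.53 to 2.99 FPKM in siTCF19 and 1.72 to 1.95 in siNC, of which DCN had no count, leukocyte markers to 0.531 to 0.62 and 0.589 to 1.41, and endothelial markers to 1.35 to 1.66 and 0.706 to 0.763. The stromal sum was nearly all COL1A1, which rose (2.69 FPKM in siTCF19, 1.81 in siNC). The endothelial sum was mostly VWF, which rose (1.48 and 0.49), while CDH5 fell (0.0422 and 0.159) and PECAM1, too low to test, was at 0.0138 FPKM in siTCF19 and 0.0801 in siNC. Fewer cells with a transcript and less of it per cell cannot be told apart in these bulk libraries.

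More of the mitochondrial ribosomal protein genes were lower in siTCF19 cells than higher, by small amounts. At an adjusted p under 0.05, 32 of the 77 fell, 5 rose and 40 were not called. The falls were 41.6% of the genes, where 20.8% of all tested genes and 24.5% of tested protein-coding genes were lower. The rises were 6.5% of the genes, where 20.7% of all tested genes and 23.8% of protein-coding genes were higher. Called in either direction were 48.1% of the members, against 41.5% of all tested genes and 48.2% of the protein-coding ones, so the share called was near the background and the split between directions was not. The median log2 fold change was -0.128 over the 77 genes and 0.001 over all tested genes, and 57 of the 77 values lay below 0. With library-size scaling the median was -0.067 over the 77 genes and 0.061 over all tested genes, and 22 fell and 10 rose. With 1 library left out 2 to 6 rose, 2 without siTCF19 replicate 1 and 3 without siTCF19 replicate 3, siNC replicate 2 or siNC replicate 3.

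Every siTCF19 library lay below every siNC library for 31 of the 77 genes and above every one for 4. Among all tested genes the groups were apart in 49.2%, with siTCF19 below in 24.9% and above in 24.4%; among tested protein-coding genes they were apart in 55.5%, below in 28.5% and above in 27.0%. Of the 32 falls, 29 showed no overlap between the groups; MRPL27, MRPL14 and MRPL58 overlapped. Of the 5 rises, 3 showed no overlap, and MRPL54 and MRPL57 overlapped. Only MRPL3 changed by more than 1.5-fold, and none of the 77 by 2-fold. The authors' deposited table, a comparison of the same 6 libraries, lists 27 of these genes as lower and 2 as higher at an adjusted p under 0.05. The shares of all genes lower and higher in that comparison were not counted, so these 2 counts have no background beside them.

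**Figure D1:**
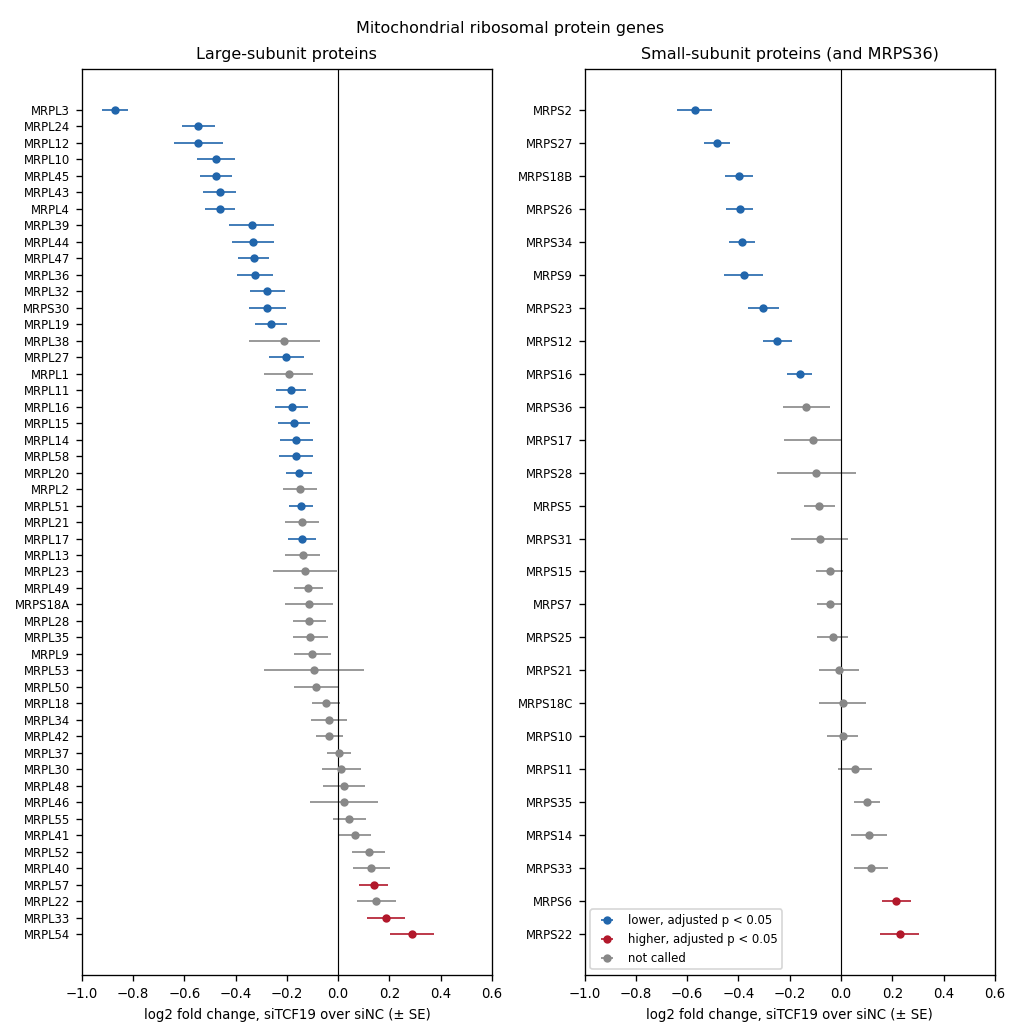
Log2 fold change of siTCF19 over siNC for the 77 tested genes, with its standard error, by subunit and in order of size; blue genes were lower, red genes higher and grey genes not called. MRPL3 stands alone at -0.87, and the other falls lie between -0.57 and -0.14.

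The genes' summed share of each library shows the same direction. They took 0.503%, 0.493% and 0.517% of the counts in the siTCF19 libraries and 0.547%, 0.539% and 0.539% in the siNC libraries. The groups did not overlap in this share. In FPKM the sums were 2215.8, 2126.8 and 2275.9 in siTCF19 and 2509.8, 2535.4 and 2461.7 in siNC, and these did not overlap either.

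The promoters of 4 genes that the results below turn on are shown first, because the transcription factors best known for driving mitochondrial protein genes from the nucleus, NRF1 and GABPA, bind close to the start of transcription. MRPL3 had the largest fall, MRPS34 the highest level, MRPL45 a fall and letters of both the NRF1 site and the E-box, and MRPS22 a rise. Each sequence is 1 strand of RefSeq's GRCh38.p14, from 250 bases before to 50 bases after RefSeq's start of the gene, 5′ to 3′ along the gene. The windows are chr3:131502922-131503221 (minus strand), chr16:1773085-1773384 (minus), chr17:38296918-38297217 (plus) and chr3:139343744-139344043 (plus). RefSeq's starts are not those of the deposited table, and for MRPS22 the table's gene begins far upstream of this window. Capitals mark matches on either strand to letters of the NRF1 site (TGCGCANGC), the ETS site that GABPA binds (CCGGAAG), the YY1 site (AAGATGGCG) and the E-box that MYC binds (CACGTG); no motif's letters contain those of another.
MRPL3: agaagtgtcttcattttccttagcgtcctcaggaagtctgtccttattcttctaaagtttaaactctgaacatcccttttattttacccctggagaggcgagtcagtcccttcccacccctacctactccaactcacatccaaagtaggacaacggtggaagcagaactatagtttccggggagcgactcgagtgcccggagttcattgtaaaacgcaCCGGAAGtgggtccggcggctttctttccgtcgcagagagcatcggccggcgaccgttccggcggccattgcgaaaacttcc
MRPS34: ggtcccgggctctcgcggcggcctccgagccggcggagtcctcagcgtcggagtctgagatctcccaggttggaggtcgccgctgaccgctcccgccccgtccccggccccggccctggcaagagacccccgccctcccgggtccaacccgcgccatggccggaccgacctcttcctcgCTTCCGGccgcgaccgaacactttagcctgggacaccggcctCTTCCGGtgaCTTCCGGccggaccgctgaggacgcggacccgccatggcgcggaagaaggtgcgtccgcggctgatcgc
MRPL45: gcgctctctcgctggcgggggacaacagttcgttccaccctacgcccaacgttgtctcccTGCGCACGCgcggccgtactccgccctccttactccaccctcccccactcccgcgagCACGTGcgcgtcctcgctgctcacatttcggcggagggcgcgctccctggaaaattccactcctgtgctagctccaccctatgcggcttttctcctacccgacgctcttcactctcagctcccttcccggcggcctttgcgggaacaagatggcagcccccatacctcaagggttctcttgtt
MRPS22: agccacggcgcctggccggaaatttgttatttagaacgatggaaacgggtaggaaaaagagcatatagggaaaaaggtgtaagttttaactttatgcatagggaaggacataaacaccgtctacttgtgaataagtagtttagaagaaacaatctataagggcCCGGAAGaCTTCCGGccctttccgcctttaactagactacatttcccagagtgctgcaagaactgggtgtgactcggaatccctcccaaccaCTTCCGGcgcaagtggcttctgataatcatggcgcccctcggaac

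MRPL3 holds 1 ETS match, whose first base is at -32 from the RefSeq start, and MRPS34 holds 3, at -71, -29 and -19. MRPS22, which rose, also holds 3, at -87, -79 and 6. MRPL45 has an NRF1 match at -190 and an E-box at -133. Letters of both also stand in the windows of MRPL36, which fell, and of MRPS18C and MRPL22, which were not called. The windows of the falls next in size to MRPL3 (MRPS2, MRPL24, MRPL12 and MRPS27) held no match to any marked motif. RefSeq's table had a window for 69 of the 78 genes. The ETS letters stood in 29 of them (42.0%), against 10.3% of all 35116 promoters in that table and 12.8% of the promoters of protein-coding genes. The YY1 letters stood in 13 (18.8%, against 1.75% and 2.41%) and the NRF1 letters in 9 (13.0%, against 4.39% and 5.44%). The E-box was in 6 (8.7%, against 7.26% and 8.34%) and the GC box that SP1 binds (GGGCGG, not marked above) in 42 (60.9%, against 45.0% and 56.3%). By call, the ETS letters were in 13 of 30 lower genes, 3 of 5 higher genes and 13 of 33 genes that were not called. The NRF1 letters were in 5, 1 and 3 of the same classes, and the YY1 letters in 4, 0 and 8, besides the untested MRPS24. A match says only that these letters are present in the window.

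MRPL3, a large-subunit protein whose bacterial counterpart reaches towards the catalytic centre, fell the most. It lies on chromosome 3 at 131462212 to 131502983 (hg38, minus strand) and shares no exon base with another annotated gene. It had 105, 101 and 104 CPM in the siTCF19 libraries and 193, 187 and 186 CPM in the siNC libraries. The 3 siTCF19 values were all far below the 3 siNC values, with little spread in either group. Its log2 fold change was -0.87 ± 0.05, a level 1.83-fold lower (95% interval 1.70 to 1.96; edgeR's quasi-likelihood test, adjusted p = 2.88e-18). Under each of the 18 alternatives in scaling, filter, tool, unit, design, threshold and libraries MRPL3 was also called lower.

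Other large-subunit proteins with a bacterial counterpart also had genes that fell. MRPL24, a protein near the exit of the tunnel through which the new chain leaves, had 48.3, 44.8 and 50.9 CPM in siTCF19 and 65.7, 72.1 and 72.4 CPM in siNC. The groups were apart, and its log2 fold change was -0.55 ± 0.07 (adjusted p = 3.57e-09). MRPL4, which lines that tunnel in bacteria, had 69.3, 62.6 and 70.5 CPM in siTCF19 and 89.0, 98.3 and 91.3 CPM in siNC, again apart, with a log2 fold change of -0.46 ± 0.06 (adjusted p = 2.7e-08). Opposite-strand genes cover 21.4% of the exon bases of MRPL4. Of the 30 genes of this class 16 fell and 1 rose, with a median log2 fold change of -0.158. The other falls of the class outside the stalk and the tunnel exit were MRPL36 (-0.33), MRPL32 (-0.28), MRPL19 (-0.26), MRPL27 (-0.20), MRPL16 (-0.18), MRPL15 (-0.17), MRPL14 (-0.16) and MRPL20 (-0.15). The last 5 of these were small enough for single libraries to decide the call. It was lost for all 5 under library-size scaling. All 5 also lost it without siTCF19 replicate 1, all but MRPL15 without siTCF19 replicate 2 and all but MRPL14 without siNC replicate 1. Without siNC replicate 2 MRPL14 lost it, and without siNC replicate 3 MRPL16, MRPL15 and MRPL14 did; MRPL14 stood at -0.11 without siTCF19 replicate 2.

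All 3 genes for the stalk fell. The stalk is the flexible arm that recruits translation factors: MRPL10 and MRPL11 form its base and MRPL12 its mobile part, and MRPL12 has also been reported to bind the mitochondrial RNA polymerase. MRPL10 had 39.2, 33.3 and 38.6 CPM in siTCF19 and 49.3, 56.3 and 49.0 CPM in siNC, which did not overlap (log2 fold change -0.48 ± 0.07, adjusted p = 9.83e-07). MRPL12 had 24.2, 28.1 and 31.6 CPM in siTCF19 and 34.7, 48.8 and 38.8 CPM in siNC, with 1 siNC library well above the others (-0.55 ± 0.09, adjusted p = 7.03e-06). AC139530.2, annotated on the same strand, shares 68.2% of MRPL12's exon bases, so how reads were divided between the pair is uncertain. MRPL11 had 73.6, 72.2 and 81.0 CPM in siTCF19 and 86.0, 89.4 and 82.6 CPM in siNC (-0.18 ± 0.06, adjusted p = 0.0098). Its groups were apart by a narrow margin, and its call was lost under library-size scaling and without siTCF19 replicate 1, siTCF19 replicate 2 or siNC replicate 2. The median log2 fold change of the 3 genes was -0.477.

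Of the 6 genes for proteins around the tunnel exit, 4 fell. Besides MRPL24 these were MRPL45, which helps anchor the ribosome to the inner membrane, MRPL47 and MRPL17. MRPL45 had 49.6, 52.3 and 52.3 CPM in siTCF19 and 69.8, 75.2 and 69.4 CPM in siNC, far apart (-0.48 ± 0.06, adjusted p = 2.87e-08). MRPL47 had 60.9, 59.4 and 56.9 CPM in siTCF19 and 76.8, 71.7 and 74.3 CPM in siNC, also apart (-0.33 ± 0.06, adjusted p = 1.71e-05). The fall of MRPL17 was small: 91.7, 83.2 and 87.6 CPM in siTCF19 and 94.2, 96.9 and 98.4 CPM in siNC (-0.14 ± 0.06, adjusted p = 0.0388), and 10 of the 18 alternatives lost it, among them those without siTCF19 replicate 2 or 3 or any 1 of the siNC libraries. The other 2 genes were not called. MRPL22 had 39.5, 36.8 and 42.7 CPM in siTCF19 and 38.3, 34.0 and 35.2 CPM in siNC (log2 fold change 0.15, 95% interval -0.01 to 0.30, adjusted p = 0.116), and it was called higher under library-size scaling and without siTCF19 replicate 2. MRPL23 had 11.8, 10.4 and 12.9 CPM in siTCF19 and 15.1, 12.7 and 10.7 CPM in siNC (-0.13, interval -0.38 to 0.12).

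**Figure D2:**
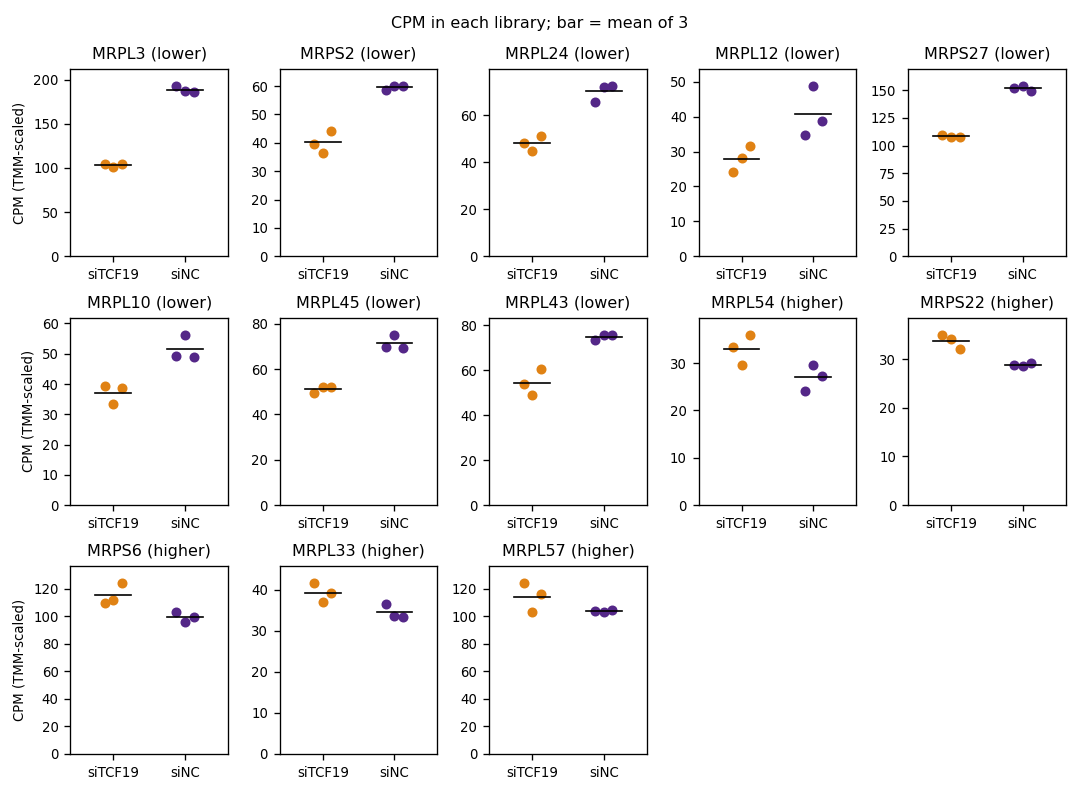
CPM of 13 genes in each siTCF19 (left) and siNC (right) library, with bars at the means of 3: the 8 falls of largest size with no overlap between the groups, then the 5 rises. The groups are apart in every panel except MRPL54 and MRPL57.

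Large-subunit proteins found only in mitochondria gave 7 falls and 2 rises among 21 genes, with a median log2 fold change of -0.096. Besides MRPL45 the largest was MRPL43, with 54.0, 49.0 and 60.4 CPM in siTCF19 and 73.5, 75.9 and 75.8 CPM in siNC (-0.46 ± 0.07, adjusted p = 1.58e-07). Its groups did not overlap, but genes on the opposite strand, TWNK and SEMA4G, cover 36.9% of its exon bases, and whether the counting used strand was not stated in the sources used here. MRPL39 (-0.34 ± 0.09), MRPL44, which has an RNase III-like fold (-0.33 ± 0.08), and MRPS30, which sits in the large subunit despite its name (-0.28 ± 0.07), also fell. So did MRPL58, a peptidyl-tRNA hydrolase built into the ribosome (-0.16 ± 0.07), and MRPL51 (-0.14 ± 0.05). Both MRPL58 and MRPL51 lost their calls under library-size scaling. MRPL51 also lost its call without siTCF19 replicate 1 or siNC replicate 1. MRPL58 also lost its call without any 1 library other than siTCF19 replicate 1, and without siTCF19 replicate 2 its log2 fold change was -0.08.

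In the small subunit 9 of 25 tested genes fell and 2 rose, with a median log2 fold change of -0.084, beside 23 falls and 3 rises among 51 large-subunit genes with a median of -0.141. Whether the subunits differed was not tested. MRPS2, a protein of the solvent side with a bacterial counterpart, had 39.7, 36.5 and 44.2 CPM in siTCF19 and 58.8, 60.1 and 60.1 CPM in siNC. All siTCF19 values were lower, and its log2 fold change was -0.57 ± 0.07 (adjusted p = 5.09e-09). MRPS27, a mitochondria-specific protein with pentatricopeptide repeats, had 110, 108 and 108 CPM in siTCF19 and 152, 154 and 149 CPM in siNC. The 3 values of each group lay close together and the groups were apart (-0.48 ± 0.05, adjusted p = 1.28e-10).

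Among small-subunit proteins with a bacterial counterpart 4 of 15 genes fell: MRPS2, MRPS9 (-0.38 ± 0.08), MRPS12 (-0.25 ± 0.06) and MRPS16 (-0.16 ± 0.05). The bacterial counterpart of MRPS12 lies at the decoding site. The call of MRPS16 was lost under library-size scaling and without siTCF19 replicate 1. The median of that class was -0.045. Among those found only in mitochondria 5 of 10 fell: MRPS27, MRPS18B, MRPS26, MRPS34 and MRPS23 (-0.30 ± 0.06), with a class median of -0.194. MRPS36, now assigned to the α-ketoglutarate dehydrogenase complex and placed in neither subunit here, was not called (-0.14, 95% interval -0.32 to 0.05).

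Humans have 3 genes related to the bacterial protein S18; MRPS18C keeps its place, and MRPS18A and MRPS18B, which sit elsewhere in the ribosome, were counted with the mitochondria-specific proteins. MRPS18B had 79.8, 75.3 and 78.7 CPM in siTCF19 and 99.7, 104 and 105 CPM in siNC, with no overlap (-0.40 ± 0.06, adjusted p = 9.29e-08). MRPS18A, which sits in the large subunit, had 20.6, 25.1 and 26.7 CPM in siTCF19 and 26.7, 28.1 and 23.5 CPM in siNC, which overlapped (-0.11, 95% interval -0.30 to 0.07, adjusted p = 0.353). MRPS18C had 21.8, 22.7 and 22.9 CPM in siTCF19 and 20.2, 21.5 and 25.3 CPM in siNC, which also overlapped (0.01, interval -0.18 to 0.19, adjusted p = 0.967). The intervals of MRPS18A and MRPS18C lay above the estimate for MRPS18B, but the difference between the genes was not tested. Opposite-strand genes cover 47.0% of the exon bases of MRPS18A and 40.2% of those of MRPS18C.

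The 5 rises were all small. MRPL54 had 33.3, 29.5 and 36.0 CPM in siTCF19 and 24.1, 29.5 and 27.3 CPM in siNC, meeting at 1 library of each group (0.29 ± 0.09, adjusted p = 0.00644). MRPS22, in which inherited variants cause a mitochondrial disease, had 35.0, 34.2 and 32.1 CPM in siTCF19 and 28.7, 28.6 and 29.1 CPM in siNC (0.23 ± 0.08, adjusted p = 0.0158). Its groups were apart, with very close siNC values.

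MRPS6, a small-subunit protein with a bacterial counterpart, had 110, 112 and 124 CPM in siTCF19 and 103, 95.7 and 99.6 CPM in siNC, all higher in siTCF19 (0.22 ± 0.06, adjusted p = 0.00141). It was the only rise that each of the 18 alternatives kept. SLC5A3 and AP000317.2 share 9.61% of the exon bases of MRPS6 on the same strand, and no alternative changed how reads were assigned to genes. MRPL33 had 41.5, 36.9 and 39.1 CPM in siTCF19 and 36.5, 33.5 and 33.4 CPM in siNC, barely apart (0.19 ± 0.07, adjusted p = 0.0418), and BABAM2 shares 21.1% of its exon bases on the same strand. MRPL57 had 124, 103 and 116 CPM in siTCF19 and 104, 103 and 105 CPM in siNC (0.14 ± 0.06, adjusted p = 0.0484), and these overlapped. The calls of MRPL33 and MRPL57 were lost with DESeq2, and so was that of MRPS22. MRPL54 lost its call without siTCF19 replicate 3 or siNC replicate 1, and MRPS22 without siTCF19 replicate 1. MRPL33 lost it without siTCF19 replicate 1 or 3 or siNC replicate 2 or 3. MRPL57 lost it without any 1 library other than siTCF19 replicate 2, and its log2 fold change was 0.08 without siTCF19 replicate 1 and 0.21 without siTCF19 replicate 2.

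The 40 genes that were not called had log2 fold changes from -0.21 to 0.15, and 25 of them were below 0. Their 95% intervals reached no lower than -0.49 and no higher than 0.30. In 3 of them, MRPL2, MRPL13 and MRPS14, the groups nevertheless did not overlap. MRPL2, whose bacterial counterpart is needed for peptide bond formation, had 42.1, 45.3 and 44.4 CPM in siTCF19 and 49.3, 49.3 and 47.5 CPM in siNC (-0.15, interval -0.28 to -0.01, adjusted p = 0.0729), and limma-trend on FPKM called it lower.

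**Figure D3:**
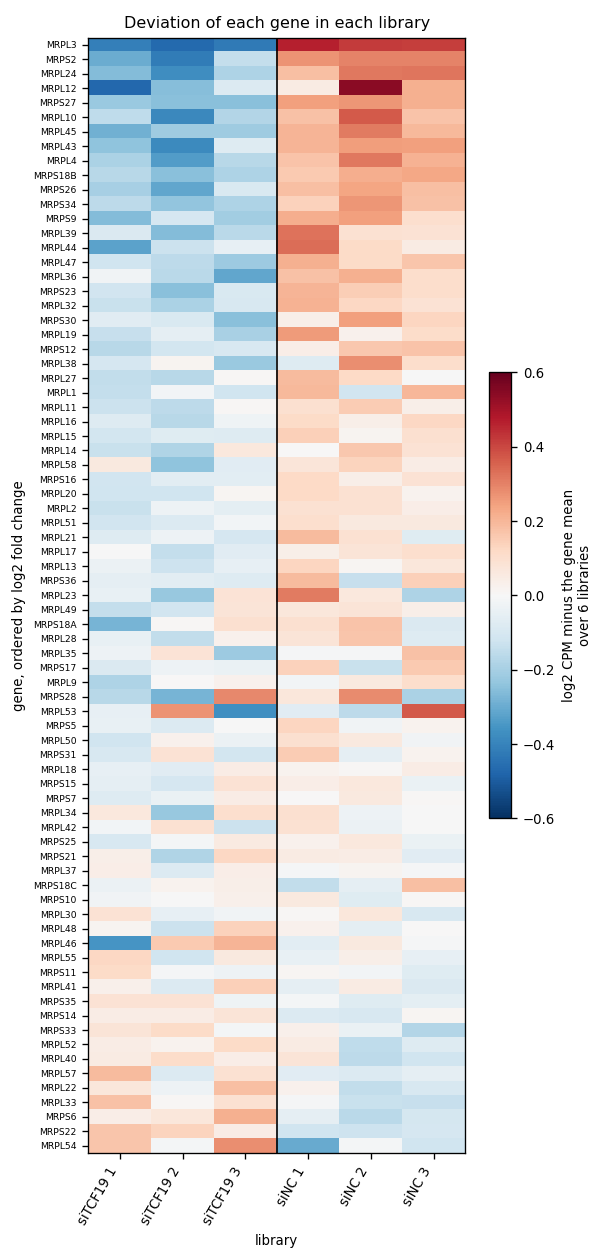
Log2 CPM of each of the 77 genes in each library minus the gene's mean over the 6 libraries, with siTCF19 on the left of the black line and genes ordered by log2 fold change. The blue block at upper left and the red block at upper right hold most of the 32 genes that fell, with MRPL3 at the top.

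Levels per length spanned a 103-fold range among the tested genes, with a lowest mean of 1.67 FPKM, a median of 20.6 and a highest of 172. Only 3 genes lay over 100 FPKM, and all 3 fell. MRPS34 had 154, 144 and 150 FPKM in siTCF19 and 188, 205 and 192 FPKM in siNC (log2 fold change -0.39 ± 0.05, adjusted p = 1.38e-08). MRPL51 had 134, 136 and 143 FPKM in siTCF19 and 156, 151 and 150 FPKM in siNC (-0.14 ± 0.05, adjusted p = 0.0113), and NCAPD2 on the opposite strand covers 31.3% of its exon bases. MRPS26 had 106, 97.4 and 114 FPKM in siTCF19 and 138, 143 and 137 FPKM in siNC (-0.40 ± 0.05, adjusted p = 5.34e-08). In each of these 3 genes all siTCF19 values lay below all siNC values. The order MRPS34, MRPL51, MRPS26 held in all 6 libraries.

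The next 2 genes by level overlapped between the groups. MRPL37, one of the large mitochondria-specific proteins of the large subunit, had 89.5, 81.1 and 89.2 FPKM in siTCF19 and 86.0, 87.5 and 85.8 FPKM in siNC (0.00, 95% interval -0.09 to 0.10). MRPL18, whose bacterial counterpart holds the small ribosomal RNA of the large subunit, had 71.8, 70.2 and 76.5 FPKM in siTCF19 and 75.1, 74.3 and 76.5 FPKM in siNC (-0.05, interval -0.15 to 0.06). Across the 77 genes the level and the log2 fold change had a Spearman correlation of -0.20 and, on log2 FPKM, a Pearson correlation of -0.21, over genes that share the same 6 libraries. In the upper 39 by level 20 fell, and in the lower 38 genes 12 did. Standard errors tended to be wider at low levels, where a change of a given size is less readily called. Whether the size of the falls differed by level was not tested.

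The 5 genes of lowest mean count could show little. MRPS24 had 8, 5 and 4 counts in siTCF19 and 7, 6 and 9 counts in siNC and was not tested; 23.2% of its exon bases belong also to the readthrough gene URGCP-MRPS24. MRPL53 had 66, 78 and 52 counts in siTCF19 and 60, 61 and 87 counts in siNC, with the widest error of all (-0.10 ± 0.20). MRPS28 had 106, 93 and 143 counts in siTCF19 and 115, 144 and 103 counts in siNC (-0.10 ± 0.15). In these 3 genes the groups overlapped. MRPL38 had 120, 123 and 108 counts in siTCF19 and 112, 155 and 136 counts in siNC (-0.21 ± 0.14), and MRPL46 had 133, 180 and 192 counts in siTCF19 and 150, 176 and 167 counts in siNC (0.02 ± 0.13), and both overlapped too. The standard errors of the 4 tested genes were the largest of the 77. Other genes share, on the same strand, 45.2% of the exon bases of MRPL53, 35.8% of MRPS28, 37.5% of MRPL38 and 11.3% of MRPL46. How reads on shared bases were counted was not stated, so these low counts may not show low levels.

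**Figure D4:**
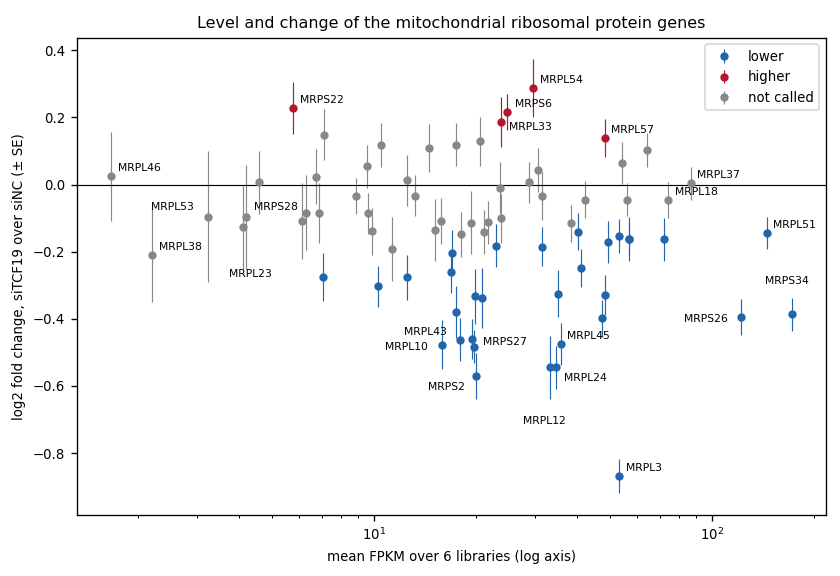
Log2 fold change of siTCF19 over siNC with its standard error, against the mean FPKM over the 6 libraries on a log axis, 1 point per tested gene. The 3 genes over 100 FPKM fell, the standard errors widen towards the low end, and MRPL3, at 53.2 FPKM, lies below all others.

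The ribosomal RNAs that these proteins assemble with went in opposite directions. MT-RNR2, the RNA of the large subunit, had 5970, 5880 and 5380 CPM in siTCF19 and 2650, 2520 and 2790 CPM in siNC, all higher in siTCF19 (1.12 ± 0.04, adjusted p = 1.39e-24). MT-RNR1, the RNA of the small subunit, had 336, 321 and 327 CPM in siTCF19 and 432, 404 and 703 CPM in siNC, all lower in siTCF19 (-0.65 ± 0.09, adjusted p = 2.36e-07), with 1 siNC library standing high. Without that library, siNC replicate 3, the value was -0.35, and DESeq2 gave an adjusted p of 0.0511, where the alternatives ranged from 2.12e-45 (no filter) to that value. Transcripts of the mitochondrial genome took 3.92% to 4.08% of the counts in siTCF19 and 3.49% to 3.65% in siNC. These shares are of unscaled counts and include MT-RNR2, so they do not show how the other mitochondrial transcripts went. The sources used here do not say how ribosomal RNA was depleted or messages selected, and these counts depend on that step.

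The 5 mitoribosomal proteins with other symbols, which the rule for members does not take in, gave 1 fall and no rise. PTCD3, which carries pentatricopeptide repeats, fell (-0.17 ± 0.06, adjusted p = 0.0151), with 91.3 ± 6.32 CPM in siTCF19 and 102 ± 1.78 CPM in siNC (SD, n = 3 each), and stood at -0.11 and uncalled without siTCF19 replicate 3; its call was also lost without siNC replicate 1 or siNC replicate 3. DAP3 (-0.12, 95% interval -0.25 to 0.01), CHCHD1 (-0.03, -0.17 to 0.11), AURKAIP1 (-0.04, -0.14 to 0.07) and GADD45GIP1 (-0.10, -0.23 to 0.03) were not called.

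Of 28 genes for factors that assemble the mitoribosome 18 fell and 1 rose, with a median log2 fold change of -0.226. C1QBP, a matrix protein that binds RNA, had 277 ± 12.4 CPM in siTCF19 and 398 ± 4.71 CPM in siNC (-0.53 ± 0.05, adjusted p = 8.17e-13). NOA1, a GTPase for the small subunit, had 30.7 ± 3.19 CPM in siTCF19 and 51.3 ± 2.20 CPM in siNC (-0.74 ± 0.08, adjusted p = 7.72e-11). The helicase DHX30 (-0.36 ± 0.05) and MRM1, which methylates the RNA of the large subunit (-0.78 ± 0.13), fell as well, and NGRN rose (0.22, adjusted p = 0.00533).

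Of 16 genes for factors that run mitochondrial translation or place its messages and products, 7 fell and 3 rose. TUFM, the elongation factor that delivers tRNAs, fell (-0.30 ± 0.05, adjusted p = 4.04e-07), as did OXA1L, the insertase that takes new chains into the membrane (-0.31 ± 0.05), and SLIRP (-0.34 ± 0.06). GFM1, the translocase, rose, with 105 ± 3.02 CPM in siTCF19 and 86.2 ± 0.96 CPM in siNC (0.29 ± 0.05, adjusted p = 2.95e-05). LRPPRC, the partner of SLIRP in stabilising mitochondrial messages (0.23), and GUF1, a translation GTPase (0.22), were the other rises. Of 20 mitochondrial aminoacyl-tRNA synthetases and amidotransferase subunits 8 fell and none rose; YARS2 (-0.32 ± 0.07), RARS2 (-0.35 ± 0.07), MARS2 (-0.43 ± 0.09) and IARS2 (-0.22 ± 0.05) had the lowest p.

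Of 16 genes for mitochondrial DNA and RNA synthesis and processing 12 fell and none rose. POLRMT, the mitochondrial RNA polymerase, had 148, 147 and 160 CPM in siTCF19 and 286, 294 and 283 CPM in siNC, far apart (-0.92 ± 0.05, adjusted p = 1.24e-19). TWNK, the replicative helicase, had 27.8, 29.3 and 27.0 CPM in siTCF19 and 48.3, 54.0 and 47.9 CPM in siNC (-0.84 ± 0.07, adjusted p = 1.83e-12). ELAC2 (-0.46 ± 0.05), which trims tRNA ends, and POLG (-0.24 ± 0.05), the DNA polymerase, also fell. Of 22 tested genes for protein import 13 fell and 1, TIMM17B, rose (0.31, adjusted p = 0.000139). DNAJC19 (-0.46 ± 0.06), GRPEL1 (-0.40 ± 0.06), TOMM40 (-0.32 ± 0.05) and TOMM22 (-0.32 ± 0.05) led the falls by p.

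**Figure D5:**
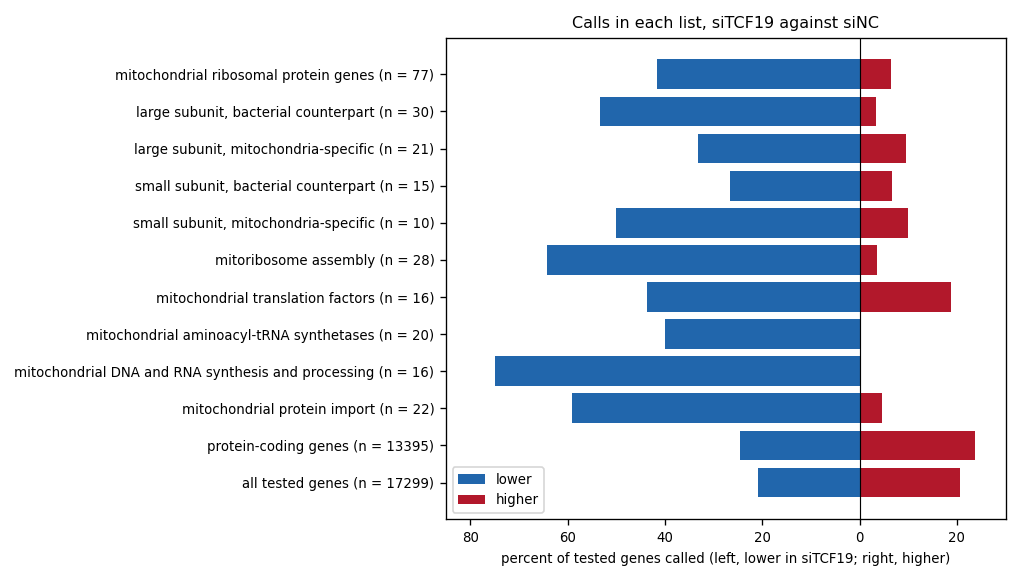
Percent of the tested genes of each list called lower in siTCF19 (blue, left) or higher (red, right), with the mitochondrial ribosomal protein genes at the top and protein-coding and all tested genes at the bottom; n is the number tested. Falls outnumber rises in every list but the 2 at the bottom, where they are nearly equal.

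Among 9 regulators known to act on nuclear genes for mitochondrial proteins 7 fell and none rose. MYC, which drives ribosome and mitochondrial genes in growing cells, had 89.2, 86.0 and 93.0 CPM in siTCF19 and 235, 243 and 240 CPM in siNC (-1.42 ± 0.05, adjusted p = 3.04e-25). NRF1 had 21.8, 24.0 and 24.3 CPM in siTCF19 and 29.6, 30.7 and 28.1 CPM in siNC (-0.34 ± 0.08, adjusted p = 0.00118). The groups were apart in both. The coactivators PPARGC1B (-0.56 ± 0.08) and PPRC1 (-0.41 ± 0.05), the nuclear receptor ESRRA (-0.27 ± 0.06), GABPB1 (-0.28 ± 0.09, uncalled without siNC replicate 1) and YY1 (-0.14 ± 0.05, uncalled under library-size scaling) also fell. GABPA (0.08, 95% interval -0.07 to 0.22) and PPARGC1A (0.23, interval 0.01 to 0.45, adjusted p = 0.0869) were not called. Whether any of these bear on the ribosomal protein genes was not tested.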

How the data were processed

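RNA was sequenced from 6 libraries of Ishikawa cells (NEBNext Ultra kit, per the labels' protocols). Per the submitters' processing notes, HISAT2 2.0.5 and featureCounts 1.5.0-p3 were used with hg38; the sources used here do not give the strand setting or the handling of reads with several matches. The authors deposited 1 table with read counts and FPKM values per library, per the file headers, and also the authors' own comparison: group means (a signal of unstated scaling), log2 fold change, raw p-value and adjusted p-value, with no tool named. All 58735 gene identifiers and positions equalled those of GENCODE 29, and 27 symbols stored as dates were restored by identifier.

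Counts were tested as deposited with edgeR 4.0.16 (R 4.3.3): filterByExpr, TMM scaling, glmQLFit and glmQLFTest on a design of group alone, and Benjamini-Hochberg adjustment over all 17299 tested genes, with calls at an adjusted p under 0.05. All adjusted p-values are from this fit unless another tool is named. Log2 fold changes carry standard errors. With 14680022 to 16244705 counts per library, a floor of 3 counts equals 0.19 to 0.206 CPM; intervals and floors cover counting error and the spread between libraries only. Subunit classes and lists came from textbook roles, and the members and lists were chosen with earlier results of these data known. Library values were given for the largest falls and rises without overlap, the rises that overlapped, the 5 highest mean FPKM and 5 lowest mean counts, the S18, stalk and tunnel-exit genes, and up to 4 called genes by p of each related list. MRPL4, MRPL2, MRPL13, MRPS14, MRPS36, NGRN, LRPPRC, GUF1, TIMM17B and the single cell type markers were named after their values were seen. The fit was tested on simulated data in which a small set of genes changed, as many up as down. Far more genes were called here, so that simulation does not bear on the choice of scaling. The alternatives were RLE, upper-quartile and library-size scaling, 2 other filters, DESeq2 1.42.0, limma-voom and limma-trend (limma 3.58.1) on log2(FPKM + 1) and log2(FPKM + 0.1), a replicate block, a table of protein-coding genes alone, a threshold of 0.01, and the omission of each library. Exon sharing was computed from GENCODE, and promoters came from RefSeq.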

Additional observations from a re-analysis of the deposited data

How the results depend on the processing

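Of the 37 called genes, 23 (22 lower, 1 higher) kept their call in all 18 alternatives and 14 lost it in at least 1. The count of falls, 32, was 22 with library-size scaling, 27 with DESeq2, 24 at an adjusted p under 0.01 and 24 to 31 with 1 library left out. The count of rises, 5, was 10 with library-size scaling, 3 without a filter, 2 with DESeq2, 2 at an adjusted p under 0.01 and 2 to 6 with 1 library left out: 2 without siTCF19 replicate 1, and 3 without siTCF19 replicate 3, siNC replicate 2 or siNC replicate 3. In the large subunit rises numbered 6 with library-size scaling, 1 without a filter, 1 with DESeq2, 1 at the stricter threshold and 0 to 4 with 1 library left out (0 without siTCF19 replicate 3; 1 without siTCF19 replicate 1, siNC replicate 2 or siNC replicate 3), and falls 14 with library-size scaling and 15 at the stricter threshold. In the small subunit rises numbered 4 with library-size scaling, 1 with DESeq2, 1 at the stricter threshold and 1 to 3 with 1 library left out (1 without siTCF19 replicate 1). The cause of these moves was not tested, except that the stricter threshold calls fewer genes by construction. Library-size scaling put the members' median log2 fold change at -0.067 in place of -0.128 and that of all tested genes at 0.061 in place of 0.001; rises were then 31.2% of the members' calls, against 13.5%, and 61.4% of all calls, against 49.9%. With the replicate number as a block, 31 members fell and 3 rose, 1 of them in the large subunit. Deviations of libraries with the same number correlated at 0.00943, -0.163 and -0.0419, and 1 of the 6 libraries, siTCF19 replicate 1, correlated best with its own number. Deviations from a mean of 3 libraries depend on each other. These values therefore cannot settle whether libraries with the same number share a culture or day. Signs were followed for 51 of the 77 tested members, beside genes outside the family. The other members, all uncalled, were not followed, and some with values near 0 may also have changed sign. All followed genes that changed sign were uncalled: with library-size scaling AURKAIP1 (0.024), MRPL18 (0.013) and CHCHD1 (0.028), without a filter MRPL37 (-0.001), and with 1 library left out MRPL37 (-0.013 to 0.053), AURKAIP1 (-0.063 to 0.035), GADD45GIP1 (-0.169 to 0.024), MRPL46 (-0.07 to 0.189), MRPS28 (-0.281 to 0.029), MRPS18C (-0.059 to 0.107), MRPL53 (-0.259 to 0.085), CHCHD1 (-0.069 to 0.031) and MRPL23 (-0.241 to 0.004). The intervals of the least counted genes that were tested span falls and rises alike. Whether depth or exon sharing with other genes lay behind their low counts was not tested.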

Other observations

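Many of these genes share a start region with a neighbour on the other strand. A tested protein-coding gene starts within 1000 bases of 28 of the tested members, with MRPL46 and MRPS11 facing each other and counted from both sides. Of these 28 pairings, 10 had a member that fell beside a neighbour that was not called, 9 had no call on either side, and 2 had both lower: MRPL43 with TWNK (-0.46 and -0.84) and MRPS18B with PPP1R10 (-0.40 and -0.21). In 1 pairing the member fell and the neighbour rose, MRPL11 with PELI3 (-0.18 and 0.26, the rise uncalled without siNC replicate 1), and in 1 the member rose and the neighbour fell, MRPL57 with SKA3 (0.14 and -0.27). A member that was not called stood beside a higher neighbour in 3 (MRPL30 with MITD1, MRPL52 with SLC7A7, MRPS18C with HELQ) and beside a lower neighbour in 1 (MRPL49 with FAU), and in 1 the member rose beside an uncalled neighbour (MRPL54 with APBA3). Among all tested protein-coding genes 24.5% were lower and 23.8% higher, so an uncalled neighbour is the commonest state. Opposite-strand genes, TWNK among them, cover 36.9% of the exon bases of MRPL43, and the strand setting of the counting was not stated. The differences between neighbours were not tested.

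The table lists 75 pseudogenes named after 34 of the members. Of these 48 had no count in any library, and together they held 0.209% as many counts as the members. In 3 of them, MRPL45P2 (7.97%), MRPS31P5 (12.9%) and MRPS31P4 (6.67%), the counts exceeded 5% of the parent's, and how reads matching several places were assigned was not stated.

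Of the 77 tested genes, 6 carry TGGTCAA or GGTCAAA in an annotated 3' UTR. Among all 13340 tested genes with such a UTR 14.2% carry either word. Of the 6, MRPS23 fell and MRPL42, MRPS25, MRPS11, MRPS33 and MRPL52 were not called. Of the other 71, 31 fell and 5 rose, with a median log2 fold change of -0.139. Over all tested genes with such a UTR the median was -0.038 with either word and 0.001 with neither. These words were chosen with earlier results of these data known. The lower median with either word may follow from that choice, so it is no separate test of the words. What the words do in these genes was not tested.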
